A study of Mus musculus with 4 samples.

Results

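Nfe2l2, which encodes the transcription factor NRF2, its inhibitor gene Keap1 and 8 antioxidant genes (Gclc, Gclm, Gpx4, Txnrd1, Srxn1, Nqo1, Hmox1 and Osgin1) were read in mouse neuroblastoma tumours treated with an antibody, with or without added tumour vesicles. The 10 genes were taken by symbol from a table of 43432 genes, all 10 were found, and all 10 passed the filter on low counts. Female C57BL/6 mice carried subcutaneous 9464D-GD2 tumours, grown from a mouse neuroblastoma line with the ganglioside GD2 on its surface. The sEV group (2 tumours) was dosed with 25 µg dinutuximab, an antibody against GD2, plus 20 µg of small extracellular vesicles (sEVs), membrane vesicles released by 9464D-GD2 cells. The dinutuximab group (2 tumours) was dosed with 25 µg dinutuximab alone. Both groups were dosed 2 times per week for 5 treatments, so every tumour had received the antibody and none was untreated. All tumours came from 1 tumour line. Within each group the labels call them 3 and 4, and do not state whether a shared number links them.

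NRF2 binds antioxidant response elements in DNA together with a small MAF protein and switches on genes for glutathione synthesis, thioredoxin recycling, quinone reduction and haem breakdown. KEAP1 normally marks NRF2 for destruction, and oxidants or electrophiles that modify KEAP1 let NRF2 build up. This control acts mainly on the protein, which mRNA counts do not read. In tumours the pathway is known for helping cancer cells withstand oxidants and drugs, and in macrophages for limiting inflammatory damage.

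The sEV libraries held 26164711 and 28187573 counts and the dinutuximab libraries 26312447 and 24452699. The genes of interest had between 116 counts (Osgin1) and 12299 counts (Gpx4) in a library. sEV tumour 3 stood apart on the first principal component (42.4% of the variance), at 35.2 where the other 3 ranged from -16.3 to -5.96. Of the neuroblastoma markers, Dbh had 0 counts in every library and Th and Phox2a at most 3 in any, while Hand2 and Mycn were measured in all 4. Ribosomal RNA read genes held 4.85% and 4.13% of sEV tumour counts and 5.80% and 6.06% of dinutuximab tumour counts. Of 14 early response and heat shock genes, known to react to tissue handling, 13 had negative fold changes.

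The start regions of these genes were searched for the letters that antioxidant response elements share, because NRF2 acts through them. RefSeq promoter windows on GRCm38.p6, from 250 bases before to 50 bases after the start of transcription, matched 8 of the 10 genes by symbol with 13 windows, and Hmox1 and Gclc were not matched. The motif TGACNNNGC or TGAGNNNGC, on either strand, lay in 5 of the 13 windows, 1 window each of Nfe2l2, Srxn1, Gclm, Osgin1 and Txnrd1. It also lay in 27.8% of all 32851 windows (12.4% for TGACNNNGC and 17.6% for TGAGNNNGC). The whole windows of Nfe2l2 (chr2:75704614-75704913, minus strand) and Srxn1 (chr2:152105274-152105573, plus strand) are given because they had the largest positive fold change and the most motif matches of the set. For Gclm (chr3:122245398-122245456), Osgin1 (chr8:119437023-119437081) and Txnrd1 (chr10:82859089-82859147), all on the plus strand, the match is given with 25 bases on each side. The Osgin1 and Txnrd1 windows with a match lie inside the annotated gene spans, which begin at 119434124 and 82833951. They therefore hold internal starts of transcription. Capitals mark the motif or its reverse complement.
Nfe2l2: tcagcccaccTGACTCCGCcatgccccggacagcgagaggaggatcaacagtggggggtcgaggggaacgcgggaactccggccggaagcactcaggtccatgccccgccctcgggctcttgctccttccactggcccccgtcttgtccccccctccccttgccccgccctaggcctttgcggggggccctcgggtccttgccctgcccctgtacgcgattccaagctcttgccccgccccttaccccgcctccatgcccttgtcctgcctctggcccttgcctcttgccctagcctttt
Srxn1: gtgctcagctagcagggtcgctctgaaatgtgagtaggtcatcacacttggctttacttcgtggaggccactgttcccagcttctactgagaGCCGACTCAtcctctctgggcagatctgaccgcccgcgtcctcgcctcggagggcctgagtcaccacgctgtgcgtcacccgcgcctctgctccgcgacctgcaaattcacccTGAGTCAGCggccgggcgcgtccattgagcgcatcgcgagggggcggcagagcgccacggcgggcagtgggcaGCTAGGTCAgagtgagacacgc
Gclm: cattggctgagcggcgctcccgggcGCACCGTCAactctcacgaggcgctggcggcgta
Osgin1: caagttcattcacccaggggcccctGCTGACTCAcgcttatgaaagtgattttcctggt
Txnrd1: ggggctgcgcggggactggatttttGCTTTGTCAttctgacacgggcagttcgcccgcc
Srxn1 held 3 matches, beginning at bases -158, -45 and 29 from the start of transcription. The Srxn1 match at -45 and the Osgin1 match at -99 contain TGACTCA on 1 strand, the letters bound by AP-1, which lay in 5.2% of all windows. The Srxn1 window also held TGACTCA on 1 strand from base -102 to -96, outside its antioxidant motif matches and not in capitals. The Nfe2l2 match begins at base -240, that of Gclm at -134 and that of Txnrd1 at -92. A match of letters is a description and shows no binding, and a window without one says only that these letters were not found there.

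None of the 10 genes passed the test for a difference with added sEVs. The largest fold change was that of Nfe2l2 itself, 1.28-fold higher in level in sEV tumours, and the other 9 lay between 0.888-fold (Hmox1) and 1.17-fold (Nqo1). With edgeR (quasi-likelihood, Benjamini-Hochberg adjusted p under 0.05), 0 of the 10 genes were called higher and 0 lower, as for all 13823 genes tested (0% in each direction). At an unadjusted p under 0.05, 1 of the 10 was higher, Nfe2l2, against 2.47% of all genes, and 0 were lower, against 3.1%. Against a fold of at least 1.2, 0 of the 10 were higher and 0 lower at that p, where 172 of all 13823 genes were higher and 254 lower. Counts at that p are not given for fits without 1 library, which leave a single tumour in 1 group. Of the 10, 8 had positive fold changes and 2 negative, with a median log2 fold change of 0.05 against 0.00 over all genes tested (6953 positive and 6870 negative). The sEV tumours lay above both dinutuximab tumours in 4 of the 10 genes (Nfe2l2, Srxn1, Gclc and Nqo1), where 18.1% of all genes did so, and below both in 0, where 16.5% did. The 95% intervals from the model lay within a 2-fold change in either direction for all 10. In 8 of the 10 the 2 tumours of 1 group differed from each other by more than the groups did, the exceptions being Nfe2l2 and Nqo1. Counts of a bulk tumour cannot tell fewer cells of a type from less RNA per cell.

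**Figure D1:**
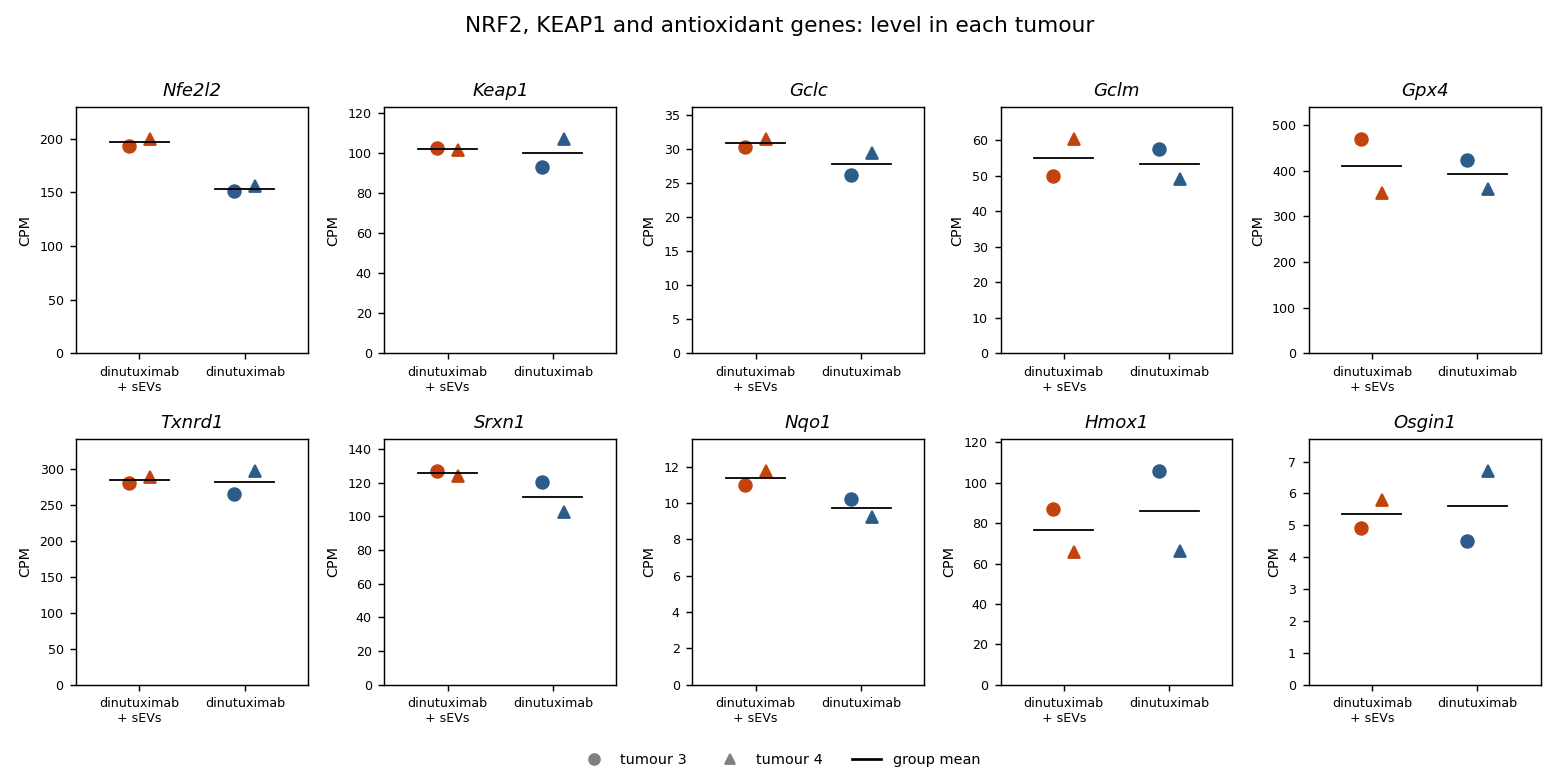
Level of each gene in each tumour, in CPM (vertical axes from 0), for dinutuximab plus sEVs (left) and dinutuximab (right). Circles are tumour 3, triangles tumour 4 and lines group means. The groups are apart for Nfe2l2, Gclc, Srxn1 and Nqo1, and overlap for the other 6.

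Nfe2l2 had 193 and 199 CPM in sEV tumours, against 151 and 155 CPM in dinutuximab tumours. CPM are counts per 1000000 counts of the library, after TMM scaling of library sizes. The 2 tumours of each group lay close together and the groups were apart, with means of 196 ± 4.27 CPM in sEV tumours and 153 ± 2.73 CPM in dinutuximab tumours (SD, n = 2 each). The log2 fold change was 0.36 ± 0.12 (SE), or 1.28-fold, with a 95% interval from 0.07 to 0.64. The unadjusted edgeR p was 0.0190 and the adjusted p 0.772, so the difference did not pass. With 1 library left out it lay between 0.34 and 0.37. In the same tumours the 12 macrophage markers summed to 3488 and 3458 CPM with sEVs and 2698 and 3083 CPM with dinutuximab, with 11 of 12 positive and none at 0. Their part in the Nfe2l2 level was not tested.

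Keap1, the gene of the adaptor that marks NRF2 for destruction, had 103 and 101 CPM in sEV tumours and 93.0 and 107 CPM in dinutuximab tumours. The sEV tumours lay between the dinutuximab tumours, and the log2 fold change was 0.03 ± 0.13 (SE; 95% interval -0.27 to 0.33). It was -0.07 without dinutuximab tumour 3. An antisense gene, Gm16754, shares 510 exon bases with Keap1, and its own count was at most 44 in a library. The strand setting of the counting was not given, so how reads of the shared bases were counted is not known.

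Of the enzymes that make glutathione, the catalytic subunit gene Gclc had both sEV tumours above both dinutuximab tumours and the modifier subunit gene Gclm had overlapping groups. Both subunits form glutamate-cysteine ligase, the rate-limiting enzyme. Gclc had 30.4 and 31.5 CPM in sEV tumours and 26.2 and 29.4 CPM in dinutuximab tumours. The groups did not overlap, but the 2 dinutuximab tumours differed by 0.16 on the log2 scale, slightly more than the fitted fold change of 0.15 ± 0.15 (SE; adjusted p = 0.926 by edgeR), which was 0.074 without dinutuximab tumour 3 and 0.24 without dinutuximab tumour 4. Gclm had 49.9 and 60.3 CPM in sEV tumours and 57.6 and 49.1 CPM in dinutuximab tumours. The groups overlapped, with a log2 fold change of 0.05 ± 0.15 (SE) that became -0.10 without sEV tumour 4 and -0.06 without dinutuximab tumour 4. Gclm shares 244 exon bases with a pseudogene on its strand, Gm6061, which had at most 18 counts in a library. It shares 296 exon bases with Gm17494 on the opposite strand, which had 0 counts in every library. How reads of the shared bases were counted is not known.

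Gpx4 encodes the selenium-containing peroxidase that reduces lipid hydroperoxides and protects against ferroptosis, a form of iron-dependent cell death. It had 469.8 and 351 CPM in sEV tumours and 424 and 361 CPM in dinutuximab tumours. In both groups tumour 3 was the higher, and the sEV pair spanned the dinutuximab pair. The log2 fold change of 0.06 ± 0.17 (SE; 95% interval -0.32 to 0.45) was -0.17 without sEV tumour 3 and -0.05 without dinutuximab tumour 4. A near-identical copy, Gpx4-ps2, aligned to Gpx4 over 733 bases at 99.7% identity, so reads of Gpx4 could be split or dropped, depending on how multiply aligned reads were counted.

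Of the thioredoxin genes, Txnrd1 had overlapping groups and Srxn1 did not. Txnrd1, the selenium-containing reductase that recycles cytosolic thioredoxin, had 280.2 and 289 CPM in sEV tumours and 265 and 298 CPM in dinutuximab tumours. Its sEV tumours lay inside the dinutuximab range, and its log2 fold change of 0.02 ± 0.13 (SE) was the smallest of the 10, with a 95% interval from -0.28 to 0.31. It was -0.0065 without sEV tumour 4 and -0.07 without dinutuximab tumour 3. Srxn1, sulfiredoxin, which restores over-oxidised peroxiredoxins, had 127 and 124 CPM in sEV tumours and 120.2 and 103 CPM in dinutuximab tumours. Both sEV tumours were above both dinutuximab tumours, by a log2 fold change of 0.17 ± 0.14 (SE; adjusted p = 0.909 by edgeR), less than the 0.23 between the 2 dinutuximab tumours. With 1 library left out the Srxn1 value ranged from 0.06 to 0.29.

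Nqo1, the quinone reductase often used to read NRF2 activity, had 11.0 and 11.8 CPM in sEV tumours and 10.2 and 9.25 CPM in dinutuximab tumours. Per length of annotated exon, its mean level was above that of 55.4% of the genes tested. The groups did not overlap, with means of 11.4 ± 0.554 CPM in sEV tumours and 9.73 ± 0.677 CPM in dinutuximab tumours (SD, n = 2 each). The log2 fold change was 0.23 ± 0.19 (SE; 95% interval -0.21 to 0.66), or 1.17-fold, and the adjusted edgeR p was 0.911. With 1 library left out it lay between 0.16 and 0.30. Osgin1, an oxidative stress-induced growth inhibitor gene, had 4.93 and 5.79 CPM in sEV tumours and 4.52 and 6.72 CPM in dinutuximab tumours. The sEV tumours lay between the dinutuximab tumours, and the log2 fold change of -0.07 ± 0.28 (SE) became 0.04 without sEV tumour 3 and 0.24 without dinutuximab tumour 4.

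Hmox1, which encodes the haem-degrading enzyme haem oxygenase-1, differed more between the 2 dinutuximab tumours than any other gene of the set. It had 87.2 and 65.8 CPM in sEV tumours and 106 and 66.3 CPM in dinutuximab tumours. In each group tumour 3 was high and tumour 4 low, by 0.41 on the log2 scale in the sEV group and 0.68 in the dinutuximab group. The log2 fold change between groups was -0.17 ± 0.23 (SE; 95% interval -0.69 to 0.35; adjusted p = 0.947 by edgeR). It was 0.21 without dinutuximab tumour 3 and 0.02 without sEV tumour 4, but -0.40 without sEV tumour 3 and -0.47 without dinutuximab tumour 4. Red blood cell markers, 6 of 7 of which passed the filter, summed to 71.0 and 43.6 CPM in sEV tumours and 35.1 and 21.4 CPM in dinutuximab tumours. The macrophage markers summed to 3488 and 3458 CPM in sEV tumours and 2698 and 3083 CPM in dinutuximab tumours. The part of either cell type in the Hmox1 level was not tested.

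**Figure D2:**
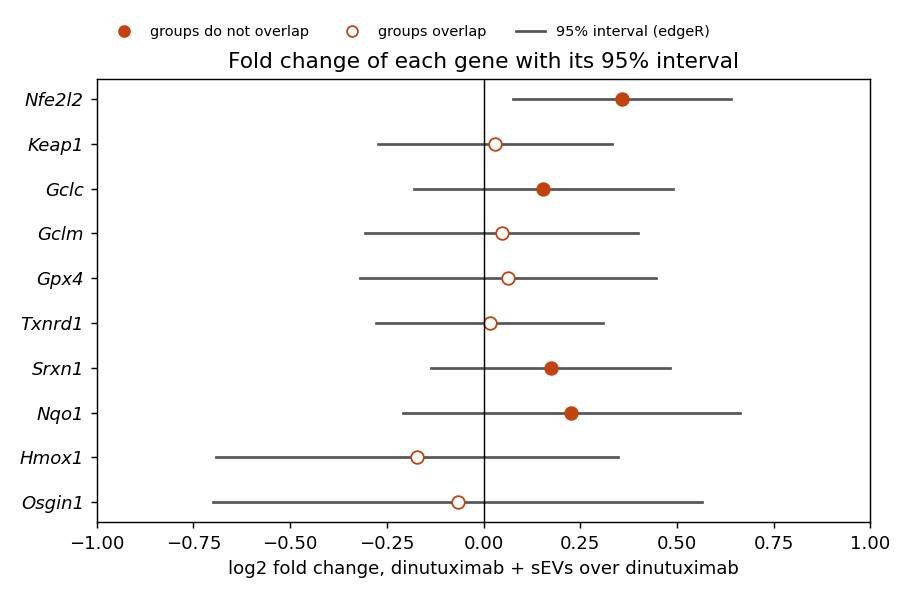
Log2 fold change of each gene, dinutuximab plus sEVs over dinutuximab (horizontal axis), with the 95% interval of the edgeR model. Filled points are genes whose groups did not overlap. Only the interval of Nfe2l2, from 0.07 to 0.64, lies wholly above 0.

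**Figure D3:**
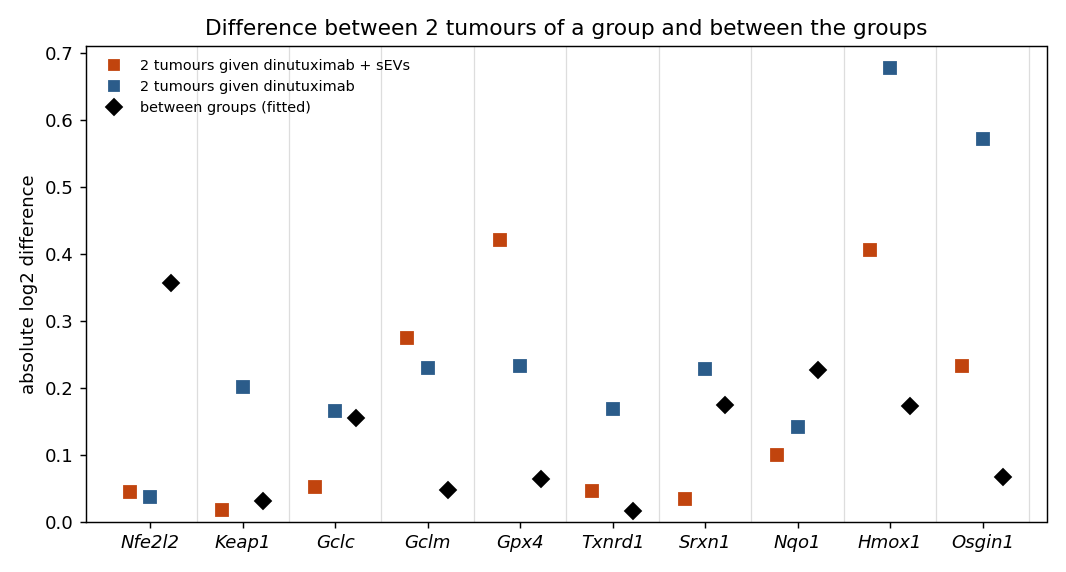
Absolute log2 difference (vertical axis) between the 2 tumours of the sEV group, between the 2 tumours of the dinutuximab group, and between the groups (fitted). For Nfe2l2 the difference between groups (0.36) is above both differences within groups (0.04 and 0.04), and for Hmox1 (0.17) it is below both (0.41 and 0.68).

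Levels of different genes were compared per length, as CPM per kilobase of annotated exon, averaged over the 4 tumours. Gpx4 stood highest at 233 CPM per kilobase, a level above that of 98.6% of the genes tested and 5.01 times that of the next gene. Hmox1 (46.4), Nfe2l2 (46.1), Srxn1 (42.0) and Txnrd1 (40.0) followed with overlapping values between neighbours. Keap1, at 21.5 CPM per kilobase, lay below these and above the next group without overlap. Gclm (8.62) overlapped with Gclc (7.80), and Gclc with Nqo1 (6.80). Osgin1 was lowest, at 2.05 CPM per kilobase, below Nqo1 without overlap and above 30.5% of tested genes. Exon lengths counted every annotated exon once, so a gene with long rarely used exons reads low on this scale.

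Among 129 genes of this set and of the related lists, the ones whose pattern over the 4 libraries was nearest to Nfe2l2 were Gstz1, a glutathione transferase gene, and Sesn1, a sestrin gene. Their root mean square differences from Nfe2l2 in gene-centred log2 CPM were 0.05 and 0.05, against a median of 0.23 over the genes searched. Nearest to Nqo1 were the selenoprotein gene Selenot and the glutathione transferase gene Gstp1 (0.04 and 0.04, median 0.19); Gstp1 has a close copy, Gstp2, so its count is uncertain. Nearest to Hmox1 were Ggct, an enzyme gene of glutathione turnover, and the reductase gene Ptgr1 (0.10 and 0.11, median 0.30). With 4 libraries such likeness is a description only.

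The related lists held 130 other genes of the pathway and its surroundings, of which 120 passed the filter. By edgeR 0 were called higher and 0 lower. At an unadjusted p under 0.05, 4 were higher (3.33%, against 2.47% of all genes) and 9 lower (7.5%, against 3.1%). Their median log2 fold change was 0.05, with 73 positive and 47 negative. Calls given here for fits without 1 sEV tumour come from edgeR fits in which all genes shared 1 variance trend, as the estimated prior degrees of freedom were infinite.

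**Figure D4:**
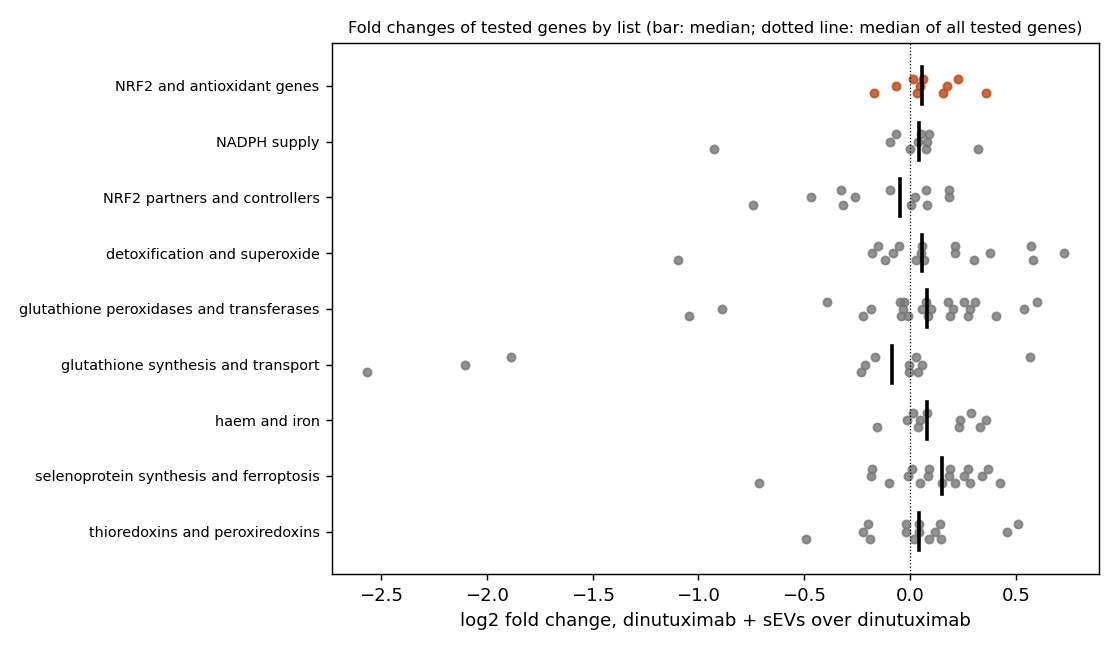
Log2 fold change of each tested gene (points; horizontal axis, dinutuximab plus sEVs over dinutuximab) by list. Bars are list medians, from -0.09 for glutathione synthesis and transport to 0.15 for selenoprotein synthesis and ferroptosis, and the dotted line is the median of all tested genes.

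Among the 12 tested partners and controllers of NRF2, 3 were lower at an unadjusted p under 0.05 (25%, against 3.1% of all genes) and 0 higher (0%, against 2.47%), and none passed the adjusted test. Mafg and Maff encode small MAF proteins, the DNA-binding partners of NRF2. Mafg had 70.1 and 76.5 CPM in sEV tumours and 96.0 and 107 CPM in dinutuximab tumours, a log2 fold change of -0.47 ± 0.13 (SE; adjusted p = 0.649 by edgeR). Maff had 35.4 and 24.9 CPM in sEV tumours and 56.9 and 43.9 CPM in dinutuximab tumours. Its log2 fold change was -0.74 ± 0.20 (SE; adjusted p = 0.621 by edgeR), and without sEV tumour 3 it was -1.03 and called (adjusted p = 0.00167). It was -0.51 without sEV tumour 4 (adjusted p = 0.30), -0.54 without dinutuximab tumour 3 (adjusted p = 0.854) and -0.92 without dinutuximab tumour 4 (adjusted p = 0.635), and not called in these edgeR fits. The third small MAF gene, Mafk, named after its values were seen, had 29.4 and 23.1 CPM in sEV tumours and 33.1 and 32.6 CPM in dinutuximab tumours (-0.32 ± 0.16, SE), with a log2 fold change of -0.52 without sEV tumour 3 and -0.16 without sEV tumour 4. In all 3, of which Mafg and Maff were named for their low p, the sEV tumours lay below both dinutuximab tumours. Of the 12 tested genes of the list, 4 did so (33.3%, against 16.5% of all genes). In 1 the sEV tumours lay above both (8.33%, against 18.1%). Sqstm1, whose product p62 binds KEAP1 and carries it to autophagy, had 427 and 474 CPM in sEV tumours and 541 and 582 CPM in dinutuximab tumours (-0.32 ± 0.13, SE; adjusted p = 0.858 by edgeR). The early response and heat shock genes summed to 645 and 629 CPM in sEV tumours and 813 and 732 CPM in dinutuximab tumours, with 13 of 14 negative. The 7 endothelial markers, all with negative fold changes, summed to 123 and 116 CPM in sEV tumours and 146 and 165 CPM in dinutuximab tumours. The part of either set in these values was not tested.

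The list of glutathione synthesis and transport, which also holds the glutathione-degrading Chac1, had the largest fold changes of the related lists, in genes of low level. Slc7a11, the cystine importer subunit, had 2 and 7 counts in sEV tumours and 15 and 34 in dinutuximab tumours, at most 1.39 CPM. Its fitted log2 fold change was -2.57 ± 0.69 (SE; adjusted p = 0.614 by edgeR), and without sEV tumour 4 it was -3.60 and called (adjusted p = 0.0232). It was not called by edgeR at -2.01 without sEV tumour 3 (adjusted p = 0.486), -3.07 without dinutuximab tumour 3 (adjusted p = 0.854) or -1.82 without dinutuximab tumour 4 (adjusted p = 0.858). Its partner chain Slc3a2, the most abundant gene of the list per length, had 137 and 138 CPM in sEV tumours and 168 and 154 CPM in dinutuximab tumours (-0.23 ± 0.13, SE). Cth, which makes cysteine from cystathionine, had 0.420 and 0.277 CPM in sEV tumours and 1.21 and 1.80 CPM in dinutuximab tumours (-2.10 ± 0.47, SE). Chac1, a glutathione-degrading enzyme, had 0.955 and 0.901 CPM in sEV tumours and 2.42 and 4.46 CPM in dinutuximab tumours. Its log2 fold change was -1.88 ± 0.40 (SE; adjusted p = 0.463 by edgeR), and it was called without sEV tumour 3 (-1.93, adjusted p = 0.0220) and without sEV tumour 4 (-1.84, adjusted p = 0.0206), but not without dinutuximab tumour 3 (-2.26, adjusted p = 0.854) or dinutuximab tumour 4 (-1.38, adjusted p = 0.838). In each of these genes both sEV tumours lay below both dinutuximab tumours. Of the 12 tested genes of the list, 5 did so (41.7%, against 16.5% of all genes). In 1 gene both sEV tumours lay above both dinutuximab tumours (8.33%, against 18.1% of all genes). That gene, named after its values were seen, was Chac2, a relative of Chac1. Chac2 had 9.89 and 8.25 CPM in sEV tumours and 6.20 and 6.06 CPM in dinutuximab tumours (0.56 ± 0.22, SE; adjusted p = 0.841 by edgeR). At an unadjusted edgeR p under 0.05, 1 gene of the list was higher (8.33%, against 2.47% of all genes) and 3 were lower (25%, against 3.1%). In the same tumours 5 of 7 endothelial markers (71.4%; list median -0.48), 9 of 14 early response and heat shock genes (64.3%; median -0.37) and 5 of 6 ribosomal RNA read genes (83.3%; median -0.38) also had both sEV tumours below both dinutuximab tumours. Their part in the values of the glutathione synthesis and transport list was not tested.

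**Figure D5:**
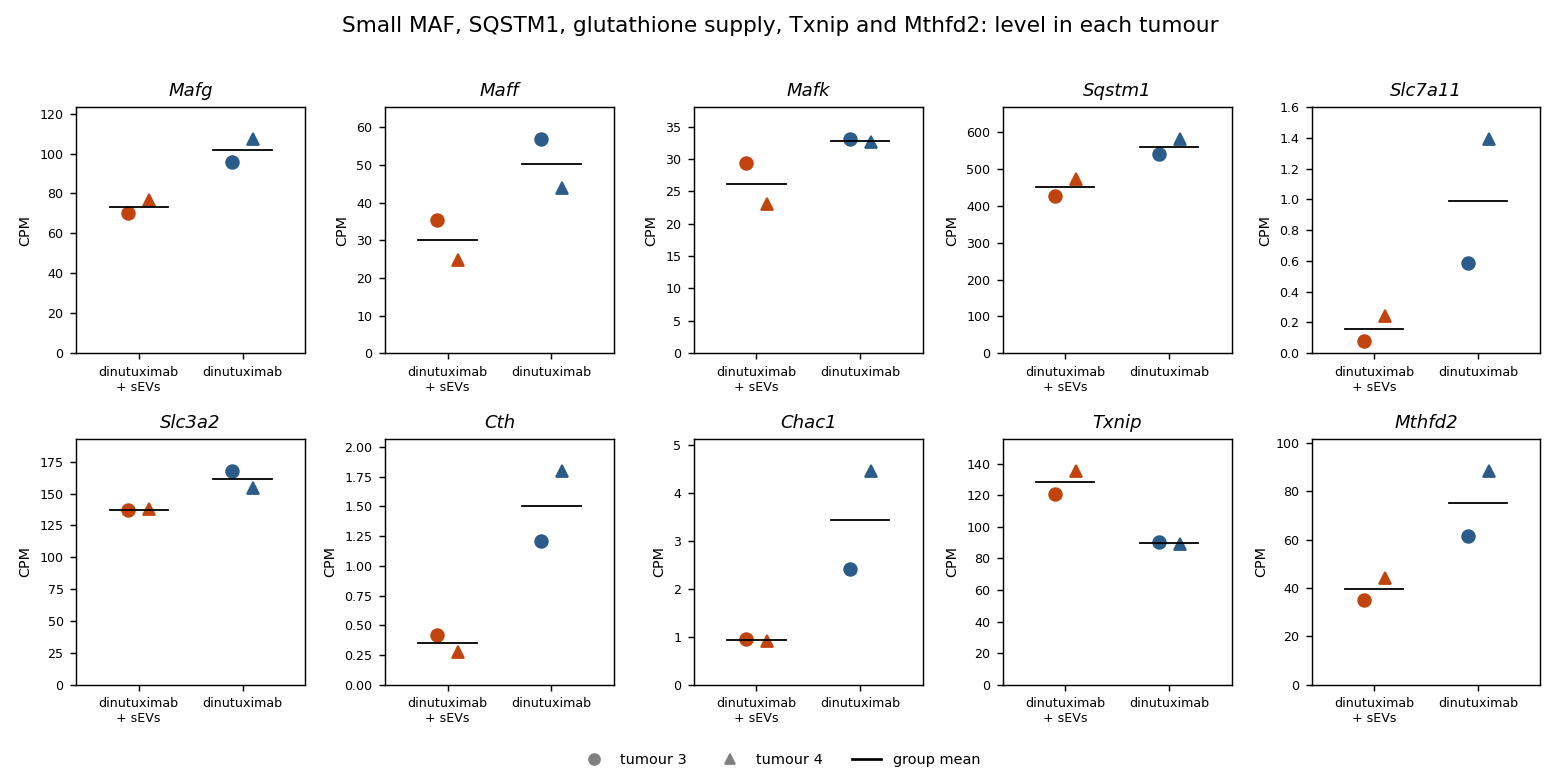
Level of 10 related genes in each tumour, in CPM (vertical axes from 0), for dinutuximab plus sEVs (left) and dinutuximab (right). Circles are tumour 3, triangles tumour 4 and lines group means. In 9 of the 10 both sEV tumours are the lower pair, and in Txnip they are the higher pair. Several of the 10 were named for a low p in these data, and Mafk after its values were seen. The count therefore follows in part from that choice. Of all tested genes, 16.5% had both sEV tumours lower and 18.1% had both higher.

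Genes of the enzymes that use glutathione and thioredoxin lay on both sides of 0. Of 24 tested glutathione peroxidases and transferases, 1 was higher at an unadjusted p under 0.05 (4.17%, against 2.47% of all genes). None was lower (0%, against 3.1%). The higher gene was Gstt3, a glutathione transferase gene with 8.17 and 8.77 CPM in sEV tumours and 4.79 and 6.39 CPM in dinutuximab tumours. Gpx7, an endoplasmic reticulum peroxidase gene, had 0.688 and 0.624 CPM in sEV tumours and 1.33 and 1.11 CPM in dinutuximab tumours. Gpx1, the most abundant of the list per length, had 583 and 460.3 CPM in sEV tumours and 508 and 399 CPM in dinutuximab tumours, which overlapped. Of 15 thioredoxin and peroxiredoxin genes, 2 were higher (13.3%, against 2.47% of all genes) and 1 lower (6.67%, against 3.1%) at an unadjusted p under 0.05. Txnip, the inhibitor of thioredoxin, had 121 and 136 CPM in sEV tumours and 90.5 and 89.4 CPM in dinutuximab tumours (0.51 ± 0.13, SE; adjusted p = 0.568 by edgeR). Sesn1, which encodes a sestrin, had 34.6 and 34.4 CPM in sEV tumours and 24.6 and 25.8 CPM in dinutuximab tumours (0.46 ± 0.14, SE). The lower gene, Sesn2, another sestrin, named after its values were seen, had 19.2 and 19.2 CPM in sEV tumours and 24.2 and 29.8 CPM in dinutuximab tumours (-0.49 ± 0.16, SE; adjusted p = 0.75 by edgeR). Thioredoxin itself, Txn1, had 499 and 481 CPM in sEV tumours and 676 and 449 CPM in dinutuximab tumours, so that the dinutuximab pair spanned the sEV pair; its log2 fold change of -0.20 was 0.13 without dinutuximab tumour 3.

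Of 10 genes that supply NADPH, the reducing power of both systems, 1 was lower at an unadjusted p under 0.05 (10%, against 3.1% of all genes). None was higher (0%, against 2.47%). Mthfd2, a mitochondrial folate enzyme, had 35.0 and 44.0 CPM in sEV tumours and 61.5 and 88.5 CPM in dinutuximab tumours (-0.92 ± 0.20, SE; adjusted p = 0.463 by edgeR). It was called without sEV tumour 3 (-0.78, adjusted p = 0.0402), without sEV tumour 4 (-1.10, adjusted p = 0.00018) and with DESeq2 (adjusted p = 0.00449), but not by edgeR without dinutuximab tumour 3 (-1.16, adjusted p = 0.854) or dinutuximab tumour 4 (-0.64, adjusted p = 0.788). Idh2, the mitochondrial NADP-dependent isocitrate dehydrogenase and the most abundant of the list per length, had 306 and 315 CPM in sEV tumours and 333 and 329 CPM in dinutuximab tumours. Its cytosolic relative Idh1 had 104 and 62.6 CPM in sEV tumours and 76.2 and 57.3 CPM in dinutuximab tumours, a log2 fold change of 0.32 ± 0.24 (SE) that was -0.10 without sEV tumour 3.

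Of 11 haem and iron genes, 9 had positive fold changes. At an unadjusted p under 0.05, 0 were higher (0%, against 2.47% of all genes) and 0 lower (0%, against 3.1%). In 0 the sEV tumours lay below both dinutuximab tumours (0%, against 16.5%), and in 5 above both (45.5%, against 18.1%). These were Slc48a1, Ncoa4, Ftl1, Fech and Blvrb, of which the last 2 were named after their values were seen. Slc48a1, a haem transporter gene, had 71.2 and 61.1 CPM in sEV tumours and 42.9 and 60.2 CPM in dinutuximab tumours. Ncoa4, the receptor that takes ferritin to autophagy, had 16.7 and 17.1 CPM in sEV tumours and 12.4 and 14.5 CPM in dinutuximab tumours. Ftl1, the ferritin light chain, whose pseudogenes make its count uncertain, had 953 and 937 CPM in sEV tumours and 904 and 923 CPM in dinutuximab tumours. The red blood cell markers summed to 71.0 and 43.6 CPM in sEV tumours and 35.1 and 21.4 CPM in dinutuximab tumours, and their part in these values was not tested.

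Of 17 detoxification and superoxide genes, 0 were higher at an unadjusted p under 0.05 (0%, against 2.47% of all genes). None was lower (0%, against 3.1%). In 5 both sEV tumours lay above both dinutuximab tumours (29.4%, against 18.1% of all genes), and in 2 below both (11.8%, against 16.5%). Nqo2, a relative of Nqo1, had 81.6 and 61.1 CPM in sEV tumours and 59.1 and 50.9 CPM in dinutuximab tumours, and the aldo-keto reductase gene Akr1b8 had 190 and 158 CPM in sEV tumours and 197 and 190.03 CPM in dinutuximab tumours. Gpnmb, a membrane glycoprotein gene, had 11.7 and 16.5 CPM in sEV tumours and 12.7 and 47.7 CPM in dinutuximab tumours. Its negative fold change (-1.10 ± 0.50, SE) rested on dinutuximab tumour 4, without which it was 0.15. Without dinutuximab tumour 3 it was -1.76 and not called by edgeR (adjusted p = 0.854), and it was called without sEV tumour 3 (-0.87, adjusted p = 0.0249) and without sEV tumour 4 (-1.37, adjusted p = 6.6e-06). Of 19 genes of selenoprotein synthesis and ferroptosis, 14 had positive fold changes. At an unadjusted p under 0.05, 0 were higher (0%, against 2.47% of all genes) and 1 was lower (5.26%, against 3.1%). That gene, Gch1, the first enzyme of tetrahydrobiopterin synthesis, had 51.1 and 34.3 CPM in sEV tumours and 77.2 and 62.9 CPM in dinutuximab tumours. Its log2 fold change was -0.71 ± 0.20 (SE; adjusted p = 0.654 by edgeR), and it was called without sEV tumour 3 (-1.04, adjusted p = 0.0012). It was not called by edgeR at -0.45 without sEV tumour 4 (adjusted p = 0.413), -0.56 without dinutuximab tumour 3 (adjusted p = 0.854) or -0.85 without dinutuximab tumour 4 (adjusted p = 0.743). The selenoprotein genes Selenof (736 and 575 CPM in sEV tumours, 565 and 471 CPM in dinutuximab tumours) and Selenow (479 and 411 CPM in sEV tumours, 406 and 362 CPM in dinutuximab tumours) were higher in both sEV tumours than in either dinutuximab tumour. Without sEV tumour 3 their log2 fold changes of 0.34 (Selenof) and 0.21 (Selenow) were 0.14 and 0.089.

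All 10 genes of the set are protein-coding and are located here on GRCm38. Nfe2l2 (ENSMUSG00000015839) spans 75675513 to 75704641 on the minus strand of chromosome 2 and Srxn1 (ENSMUSG00000032802) 152105516 to 152111376 on its plus strand. Gclm (ENSMUSG00000028124) lies at 122245557 to 122270732, chromosome 3, plus strand. On chromosome 8, Hmox1 (ENSMUSG00000005413) spans 75093621 to 75100589 and Osgin1 (ENSMUSG00000074063) 119434124 to 119446256 on the plus strand, and Nqo1 (ENSMUSG00000003849) 107388225 to 107403206 on the minus strand. On chromosome 9, Keap1 (ENSMUSG00000003308) spans 21229730 to 21239361 on the minus strand and Gclc (ENSMUSG00000032350) 77754535 to 77794485 on the plus strand. Gpx4 (ENSMUSG00000075706) spans 80047166 to 80056439 and Txnrd1 (ENSMUSG00000020250) 82833951 to 82897712, both on the plus strand of chromosome 10.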

How the data were processed

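RNA of 4 tumours, 2 per group, was sequenced from stranded mRNA libraries on 2 lanes each, per the labels' protocols. Raw counts for each Ensembl gene were deposited by the authors in a table of the series and a table per sample, whose 173728 values were equal. STAR, SAMtools, HTSeq and mm10 appear in the submitters' processing notes. Their versions, the annotation release and the counting strand are not given in the sources used here. GENCODE M21 on GRCm38, the assembly that mm10 denotes, named 42548 of 43432 IDs. The unnamed IDs took at most 0.1% of counts and stayed in the tests.

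Tests on the deposited counts used edgeR 4.0.16 (R 4.3.3): filterByExpr kept 13823 genes, TMM factors were 0.976 to 1.02, and the quasi-likelihood test had the group as its only term, with Benjamini-Hochberg adjustment over all tested genes at 0.05. Fold changes are sEV over dinutuximab, and 95% intervals come from that model. The common coefficient of biological variation was 0.15. An exact two-sided permutation test of 2 against 2 cannot go below 0.333 and was not used. Near-identical copies were sought with blastn at 95% identity over at least 100 bases.

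The genes, related lists and tests were chosen with earlier results of these data known. All 10 genes of the set are named. From each related list the most abundant gene per length and the 2 of lowest unadjusted p are named, plus Slc7a11. Alternatives were DESeq2 1.42.0, limma-voom (limma 3.58.1), other scalings, filters and thresholds, the tumour number as a block, and leaving out each library.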

Additional observations from a re-analysis of the deposited data

How the results depend on the processing

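None of the 10 genes passed the test under any alternative run: DESeq2, limma-voom, 3 other scalings, 2 other filters, library sizes without ribosomal RNA read and mitochondrial genes, robust dispersions, the replicate block, a threshold of 0.1 on the adjusted p, a fold of at least 1.2, and leaving out each library. Over these settings the fold changes of Nfe2l2, Srxn1, Gclc and Nqo1 stayed positive. With all 4 libraries every gene of the set kept its sign, Nfe2l2 ranging from 0.35 to 0.39. With 1 library left out, 6 genes changed sign, with log2 fold changes from -0.10 to 0.17 for Gclm, -0.17 to 0.26 for Gpx4, -0.47 to 0.21 for Hmox1, -0.067 to 0.13 for Keap1, -0.33 to 0.24 for Osgin1 and -0.067 to 0.10 for Txnrd1. The cause was not tested. The median over the 10 genes, 0.05 with all libraries, ranged from 0.0845 to 0.175 with 1 left out (highest without dinutuximab tumour 3) and was 0.09 with total-count scaling, where the median of all genes was 0.04. Over all genes, edgeR called 0; DESeq2 called 55, edgeR with no filter on low counts 262 and edgeR with the replicate block 67, and with 1 library left out between 0 and 316. Of the related genes named, edgeR with no filter on low counts called Chac1, Cth, Gch1, Gpnmb, Maff, Mthfd2 and Slc7a11 lower, and with the replicate block Gch1, Maff and Mthfd2; the fit with no filter also had infinite prior degrees of freedom. At an unadjusted p under 0.05 edgeR had 341 higher and 429 lower, DESeq2 262 and 398, limma-voom 316 and 427. The labels do not say that the tumour number pairs mice. Deviations of same-numbered tumours from their group means correlated at 0.0659 across genes, and under the block the median over the 10 genes was 0.05 and 0 were called. Leaving out 1 library leaves a single tumour in 1 group, whose spread is then taken from the other group. Each of the 10 genes had at least 116 counts in every library, and 2 tumours per group limit the precision.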
